A study of Mus musculus with 8 samples.

Results

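The nuclear genes of oxidative phosphorylation were followed across 8 mouse hippocampus arrays. Genes were taken by symbol: all those beginning with Nduf, Sdha to Sdhd, those beginning with Uqcr, Cox followed by a number, and those beginning with Atp5. This gave 98 of the 18193 genes that had a probe set with a single gene symbol, with each gene read from its brightest such probe set (by mean level over all arrays). Of the 98 genes, 42 belonged to complex I, 4 to complex II, 8 to complex III, 27 to complex IV and 17 to complex V. By role, 81 encoded subunits and 17 encoded assembly or supercomplex factors, which help to build the complexes or join them to each other. The symbol rule itself uses no measured value, but earlier results of these data were known when it was chosen.

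The arrays compared the hippocampus of female Tg6799 mice, called MT, with that of female littermates, called LM. The line carries transgenes for mutant human amyloid precursor protein and presenilin 1 under the Thy1 promoter, which is active mainly in neurons, and all animals shared the Tg6799 strain label. MT and LM were each sampled at 4 months (MT4m, LM4m) and at 8 months (MT8m, LM8m), with 2 arrays per group and no treatment. Whether 2 arrays of a group stand for different mice is not in the labels. The p-values therefore cover only the spread among these arrays, and that spread may be technical. Values are log2 expression values after RMA, the authors' normalization, and differences are MT minus LM on that scale.

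Complexes I to IV of the inner mitochondrial membrane pass electrons from NADH and succinate to oxygen, and complexes I, III and IV pump protons as they do so. Complex V, the ATP synthase, uses the proton gradient to make ATP, and neurons depend on it to restore their ion gradients. Most subunits are nuclear genes that every cell uses, whereas complex IV has tissue isoforms in which a subunit of muscle, brown fat, testis, lung or hypoxic cells replaces the widespread form. Cox8b is such a form: in rodents it replaces Cox8a as subunit 8 of complex IV in heart, skeletal muscle and brown fat.

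RefSeq promoter windows (GRCm38.p6), each running from 250 bases before to 50 bases after a listed gene start, were matched by symbol to 80 of the 98 genes, which had 86 windows. The windows of 2 isoform pairs are shown, because Cox8b and Cox7a1 were the tissue isoforms whose 4 MT arrays all lay below the 4 LM arrays in the results below. Capitals mark matches, on either strand, to motifs known for promoters of respiratory genes or of widely used genes, or to the OTX motif. Otx2 is a gene of the choroid plexus list used below. Bases are counted from 1 at the 5′ end of a window. The motifs searched were NRF1 (CGCNTGCG), ETS or GABP (CCGGAAG), YY1 (AAGATGGC), the GC box (GGGCGG), the CCAAT box (CCAAT), the TATA box (TATAAA) and OTX (TAATCC). No searched motif is contained in another, although matches may overlap at their ends.
Cox8b, chr7:140900397-140900696, minus strand: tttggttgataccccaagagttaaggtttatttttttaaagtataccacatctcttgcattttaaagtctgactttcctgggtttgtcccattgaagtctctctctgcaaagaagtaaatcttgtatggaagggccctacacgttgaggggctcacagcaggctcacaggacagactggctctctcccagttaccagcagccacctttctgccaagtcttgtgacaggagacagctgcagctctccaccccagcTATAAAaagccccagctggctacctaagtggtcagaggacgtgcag
Cox8a, chr19:7217567-7217866, minus strand: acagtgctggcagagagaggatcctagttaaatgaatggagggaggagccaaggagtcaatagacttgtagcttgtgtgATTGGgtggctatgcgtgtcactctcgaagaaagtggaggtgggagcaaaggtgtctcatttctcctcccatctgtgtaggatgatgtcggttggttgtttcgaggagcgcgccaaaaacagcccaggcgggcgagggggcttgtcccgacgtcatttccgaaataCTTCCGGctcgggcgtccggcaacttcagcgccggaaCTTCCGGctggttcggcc
Cox7a1, chr7:30183921-30184220, plus strand: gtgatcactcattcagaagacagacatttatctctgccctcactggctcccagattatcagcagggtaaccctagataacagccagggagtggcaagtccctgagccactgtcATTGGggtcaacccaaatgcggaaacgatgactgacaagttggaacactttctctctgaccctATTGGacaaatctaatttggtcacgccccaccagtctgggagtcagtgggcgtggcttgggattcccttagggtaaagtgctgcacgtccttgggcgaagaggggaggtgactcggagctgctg
Cox7a2, chr9:79759804-79760103, minus strand: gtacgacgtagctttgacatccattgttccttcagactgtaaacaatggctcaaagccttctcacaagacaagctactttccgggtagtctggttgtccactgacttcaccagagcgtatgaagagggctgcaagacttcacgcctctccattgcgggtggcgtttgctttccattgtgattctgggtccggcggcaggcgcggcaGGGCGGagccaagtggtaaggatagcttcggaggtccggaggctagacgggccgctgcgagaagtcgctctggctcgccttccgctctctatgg

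The Cox8b window had a GC content of 48.3% and 2 CpG dinucleotides. Its only match was to the TATA box motif at base 255, which lies after the listed gene start and not before it. The Cox8a window had a GC content of 56%, 19 CpG dinucleotides, ETS or GABP matches at bases 246 and 283 and a CCAAT box at base 80. In Cox7a1 the matches were CCAAT boxes at bases 114 and 177, and Cox7a2 held a GC box at base 207. Over all windows of these genes, NRF1 matches were present in 34.9%, against 8.21% of the 32851 windows of the RefSeq table. ETS or GABP matches were present in 27.9% against 8.86%, YY1 matches in 14% against 2.75% and GC boxes in 48.8% against 35.7%. CCAAT boxes (40.7% against 37.4%), TATA boxes (11.6% against 13.6%) and OTX matches (5.81% against 7.06%) were about as frequent in these genes as in the whole table. The windows of these genes had medians of 20 CpG dinucleotides and 59% GC, against 7 and 52.7% in the whole table. The NRF1, ETS or GABP and GC box motifs contain a CpG, and the YY1, CCAAT, TATA and OTX motifs do not. The part of base composition in these shares was not tested. By complex, NRF1 matches were in 61.1% of the 18 windows of complex V subunits, 30.3% of the 33 of complex I, 2 of the 3 of complex II, 3 of the 5 of complex III and 12.5% of the 8 of complex IV without tissue isoforms. The 4 tissue isoforms with a window, Cox6b2, Cox7a1, Cox7b2 and Cox8b, held 0 NRF1, 0 ETS or GABP and 0 YY1 matches. Their windows had a median of 8.5 CpG dinucleotides, and 4 windows are too few to judge a share. The window of Cox6b2, which is not shown, held a GC box, CCAAT boxes and an OTX match. These counts describe letters in fixed windows, and binding was not measured.

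Some arrays stood apart before any of these genes was compared. In the library labelled MT8m replicate 1, the genes that mark the mutant arrays had littermate values: Thy1, the gene whose promoter drives the transgenes, read 9.90 there against 11.79 in MT8m replicate 2, and Cst7, a gene of plaque-associated microglia, read 1.75 against 8.03. The 3′ minus 5′ signal of the Gapdh control, which grows when RNA is degraded, was 2.19 in LM4m replicate 1 and between 0.66 and 1.42 on the other 7 arrays. The neuron list was expressed throughout, with summed log2 values over its 12 genes between 102.5 and 106.7, and the 10 genes of the hippocampal fields list summed to between 69.2 and 74.3. Counts and medians are given below also without these arrays, as are the named genes whose averaged difference changed sign or moved by over 1.5 times. All directions below follow the sample labels, and they are opposite to those of the study's published gene tables, where the names of the genotypes are exchanged.

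Cox8b was the only gene of oxidative phosphorylation that passed the test. It read 4.13 and 3.73 in LM4m, 2.75 and 3.03 in MT4m, 4.97 and 4.94 in LM8m, and 2.92 and 2.72 in MT8m. All 4 MT arrays lay below all 4 LM arrays, and the library labelled MT8m replicate 1 lay with the other mutant arrays for this gene. At 8 months Cox8b was lower in MT by 2.13 log2 units or 4.38-fold (difference -2.13 ± 0.17 SE, limma adjusted p = 0.00999), and averaged over ages it was 3.00-fold lower (-1.59 ± 0.12, adjusted p = 0.00509). At 4 months the difference was -1.04 ± 0.17, with a limma adjusted p of 0.386. Among all 18193 genes, 11 had a lower difference at 8 months and 22 a lower averaged one. The share of probe sets that passed was 0.02% at 8 months (9 of 45037), 0.06% for the averaged difference (27) and 0% at 4 months. Over the 4 groups together, Cox8b was the 1 of the 98 genes to pass the moderated F test (adjusted p = 0.0215), which 0.0133% of probe sets passed. Without detection calls it cannot be said whether the MT values, close to the median probe set mean of 2.47, lie above background, so the folds are those of the array values and may be too small. In a bulk sample, fewer cells of a type and less RNA per cell cannot be told apart.

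In order of level, Cox8b was highest in LM8m (4.95 ± 0.02, SD, n = 2), followed by LM4m (3.93 ± 0.28), MT4m (2.89 ± 0.20) and MT8m (2.82 ± 0.14). The MT groups overlapped, while LM8m lay above LM4m on every array. The age difference, 8 minus 4 months, was 1.03 ± 0.17 in LM and -0.065 ± 0.17 in MT, and neither passed (limma adjusted p = 1 and 0.974). The age difference in MT may be too small for the same reason. The genotype difference at 8 months minus that at 4 months was -1.09 ± 0.24, with an adjusted p of 1.00 from the limma interaction term and an unadjusted p of 0.00175. The share of probe sets that passed was 0% for each age difference and for the interaction. The difference at 8 months was -2.23 when the library labelled MT8m replicate 1 was left out, and without LM4m replicate 1 the difference at 4 months was -0.84. The calls depended on single arrays and on the shared spread: leaving out LM8m replicate 2 or MT8m replicate 2 ended the call at 8 months (differences of -2.15 and -2.03, adjusted p up to 0.147), leaving out MT4m replicate 1 ended the averaged call (-1.52, adjusted p = 0.0626), and the 4 arrays of 8 months alone gave an adjusted p of 0.0695.

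**Figure D1:**
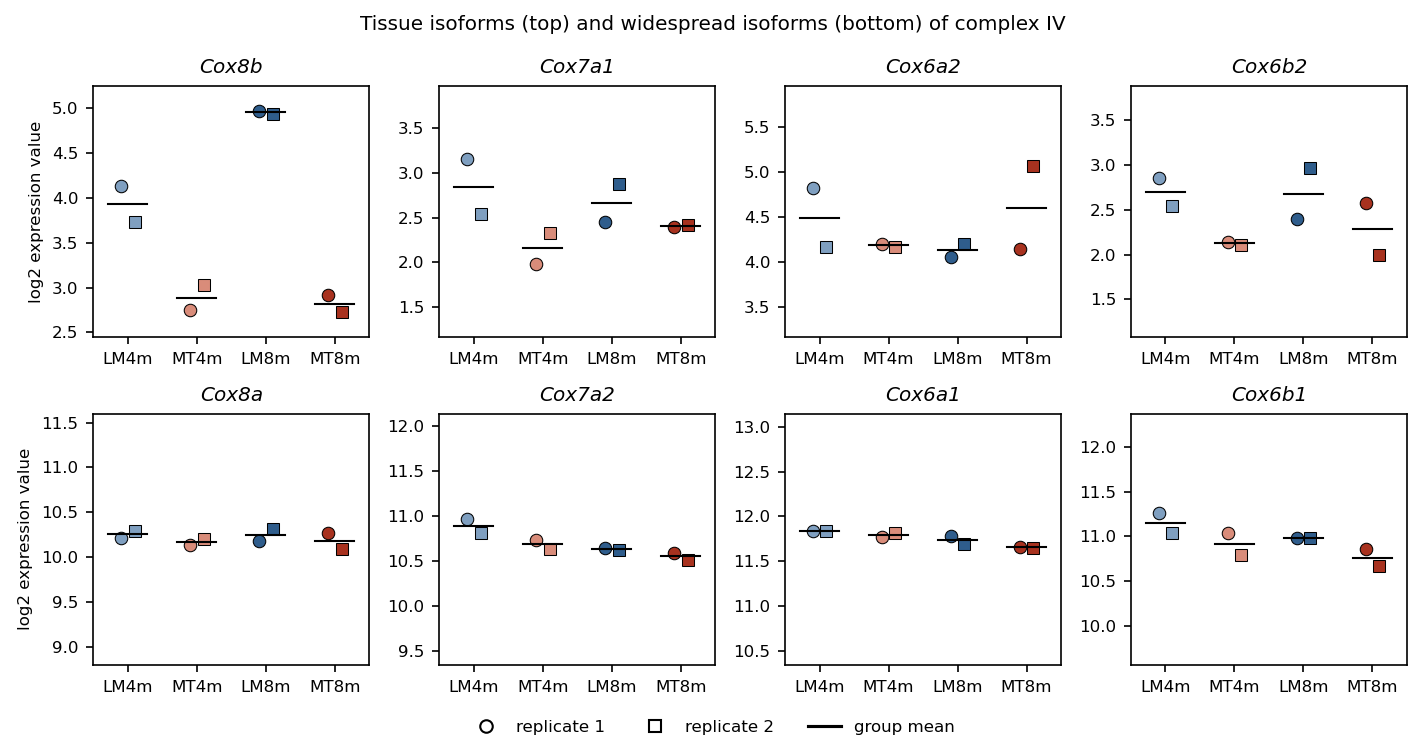
Log2 expression value (y axis, spanning the same number of log2 units in every panel but starting at different values) of 4 tissue isoforms of complex IV (top row) and their widespread partners (bottom row) in the 4 groups. Points are arrays (circle replicate 1, square replicate 2) and lines are group means. Cox8b separates the LM arrays (3.73 to 4.97) from the MT arrays (2.72 to 3.03), while Cox8a stays between 10.09 and 10.31 on all 8 arrays.

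Cox8a, the partner that Cox8b replaces, read 10.21 and 10.29 in LM4m, 10.14 and 10.21 in MT4m, 10.18 and 10.31 in LM8m, and 10.27 and 10.09 in MT8m. These groups overlapped, and the averaged difference was -0.072 ± 0.09 (SE). Among the other tissue isoforms, Cox7a1, the heart and skeletal muscle form of subunit 7a, read 3.15 and 2.54 in LM4m, 1.98 and 2.33 in MT4m, 2.45 and 2.88 in LM8m, and 2.40 and 2.42 in MT8m. For Cox7a1 too the 4 MT arrays lay below the 4 LM arrays, at 8 months by a narrow margin, and the averaged difference of -0.47 ± 0.16 did not pass (limma adjusted p = 0.836). Its widespread partner Cox7a2 had an averaged difference of -0.15 ± 0.09.

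Cox6b2, the testis form of subunit 6b, read 2.85 and 2.54 in LM4m, 2.14 and 2.11 in MT4m, 2.40 and 2.96 in LM8m, and 2.57 and 2.00 in MT8m, so that the genotypes were apart at 4 months and overlapped at 8 months. Its averaged difference was -0.48 ± 0.17 (limma adjusted p = 0.84), and that of the widespread Cox6b1 was -0.22 ± 0.10. Cox6a2, the muscle form of subunit 6a, was set by single arrays: it read 4.82 in LM4m replicate 1 and 5.06 in MT8m replicate 2, and between 4.06 and 4.20 on the other 6. Its differences were -0.31 ± 0.30 at 4 months and 0.48 ± 0.30 at 8 months, which became 0.018 without LM4m replicate 1 and 0.015 without MT8m replicate 2. The averaged difference of 0.084 became 0.25 without LM4m replicate 1 and 0.31 when the library labelled MT8m replicate 1 was left out. The widespread Cox6a1 stayed between 11.65 and 11.84 on all arrays.

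None of the remaining tissue isoforms separated all MT arrays from all LM arrays. Cox4i2, the lung and hypoxia form of subunit 4, had a difference of 0.20 at 4 months and 0.074 at 8 months. At 4 months both of its MT arrays lay above both LM arrays. The averaged differences were 0.14 ± 0.09 for Cox4i2 and -0.029 ± 0.10 for Cox8c, the testis form of subunit 8. They were 0.035 ± 0.18 for Cox7b2, a second form of subunit 7b, and 0.013 ± 0.12 for Ndufa4l2, a hypoxia-induced relative of the complex IV subunit Ndufa4. For the widespread Cox4i1 and Ndufa4 they were 0.020 ± 0.08 and -0.093 ± 0.11. Without LM4m replicate 1 they were 0.17 for Cox7b2, 0.021 for Ndufa4l2, -0.049 for Cox8c, near 0 for Cox4i1 and -0.15 for Ndufa4. With the library labelled MT8m replicate 1 left out they were -0.062 for Cox7b2, -0.12 for Ndufa4l2, -0.083 for Cox8c, -0.12 for Cox8a and -0.15 for Ndufa4. Of the 8 tissue isoforms, 1 passed at 8 months and averaged, and the median averaged difference was -0.0078, beside -0.012 over all genes. Of the 98 genes, 5 had means under the median probe set mean of 2.47: Cox4i2, Cox6b2, Cox7b2, Ndufa4l2 and the complex I subunit Ndufb4. For Ndufb4 this holds only for the single-symbol probe set. Probe sets that it shares with Ndufb4b and Ndufb4c, left out of all counts, had means of 8.62 and 8.63 and averaged differences of -0.15 and -0.13.

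Marker lists, chosen with earlier results of these data known, were read beside Cox8b. All 23 genes of the choroid plexus epithelium list, the tissue that secretes cerebrospinal fluid and borders the hippocampus, had lower means in MT. Their median averaged difference was -1.90. Averaged over ages, 12 of the 23 passed by limma, beside 18 of all 18193 genes. The mean deviation of the list from the 8-array mean lay between 0.62 and 1.61 on the LM arrays and between -0.96 and -0.85 on the MT arrays. Its summed log2 values ran from 112.7 to 135.6 in LM and from 76.5 to 78.8 in MT. Ttr, the defining gene of this list, read at least 12.43 on every LM array and at most 10.97 on every MT array. The 10 ependymal genes also had lower means in MT, with a median of -0.63 and 0 that passed by limma. At an unadjusted p under 0.05, 7 of them (70%) were lower, beside 4.64% of all genes. All 10 genes of the meningeal fibroblast list were lower in MT too (median -0.39), of which 0 passed by limma and 2 (20%) had an unadjusted p under 0.05. Igf2, a growth factor of that list, had -1.94 (adjusted p = 0.0892). The mean deviation of the meningeal list overlapped between the genotypes, from -0.18 to 0.77 in LM and from -0.39 to -0.11 in MT. Of the 11 genes of smooth muscle and pericytes, 9 had averaged differences below 0, with a median of -0.079. Of these 11 genes, 0 passed by limma and 2 (18.2%) were lower at an unadjusted p under 0.05. At 4 months 10 lay below 0 (median -0.31), and at 8 months 5 did (median 0.010).

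For the tissues in which Cox8b is the usual form, the lists as a whole stayed near 0. The muscle list had a mean deviation between -0.064 and 0.085 over the 8 arrays, and 17 of its 23 genes had means under the median probe set mean. Ckm, the muscle creatine kinase, ran from 2.05 to 2.69, and Myh6, a heart myosin, from 1.22 to 1.56. The lowest averaged differences of the muscle list were those of Tnnt2, the heart troponin T (-0.51 ± 0.21), and Pygm, the muscle glycogen phosphorylase (-0.51 ± 0.10). Of the 23 genes, 2 (8.70%) were lower at an unadjusted p under 0.05, beside 4.64% of all genes, and 0 passed by limma. The brown fat list of 8 genes had a mean deviation between -0.13 and 0.14, and Ucp1, its defining gene, ran from 1.51 to 1.82. The part of choroid plexus tissue in the Cox8b difference was not tested. Cox8b was as low in the library labelled MT8m replicate 1 as in the other mutant arrays, and the choroid plexus list was too (-0.90), whereas the microglia list was at -0.77 there and at 1.97 in MT8m replicate 2.

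The genes whose pattern over the 8 arrays was most like that of Cox8b were ranked by Pearson's r, given without a test because the arrays share the group structure. Tmem72 (r = 0.977) and Aqp1 (r = 0.970), a water channel, came first, and both were on the choroid plexus list. Cytl1, Tmem129, Slc4a2, an anion exchanger, Ppp1r1b, Krt8, a keratin of simple epithelia, Dio3os, Crygn and Pknox2 followed with r from 0.962 down to 0.947. Among the other genes of oxidative phosphorylation, the nearest was Ndufaf8 at rank 153 (r = 0.831). Cox7a1 stood at rank 1065 (r = 0.622), and Cox8a at rank 2819 (r = 0.446).

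**Figure D2:**
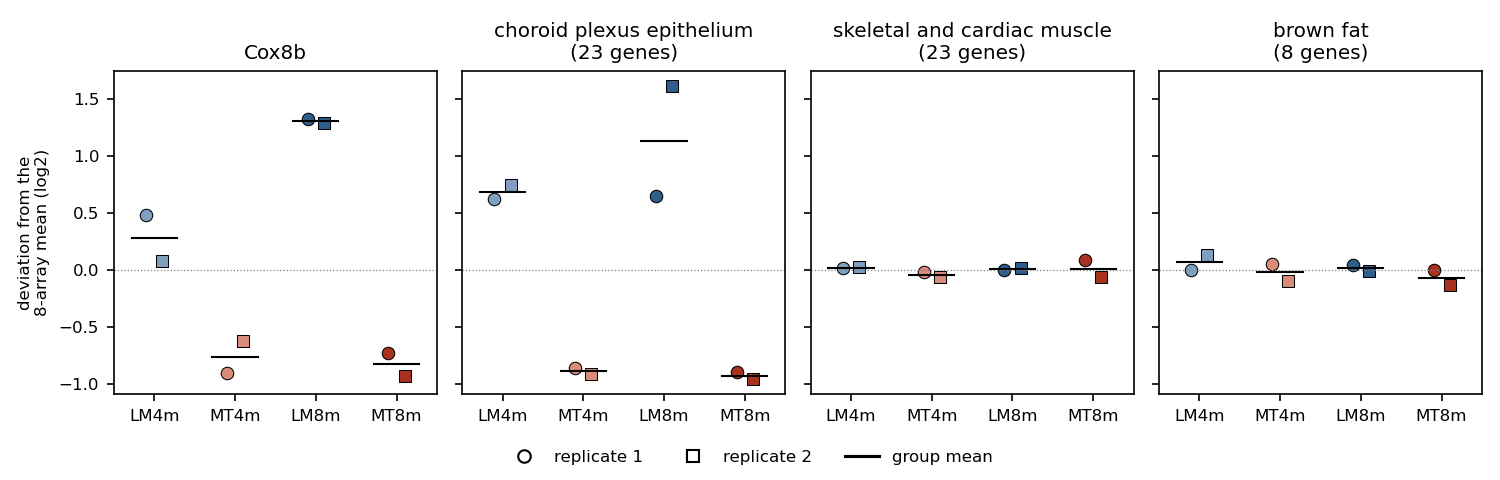
Deviation from the 8-array mean in log2 units (y axis) of Cox8b and of the mean over 3 marker lists, by group (x axis). Points are arrays (circle replicate 1, square replicate 2) and lines are group means. Cox8b and the choroid plexus list separate LM from MT arrays, while the muscle and brown fat lists stay between -0.13 and 0.14.

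Outside the tissue isoforms, the differences of single genes were small, and 0 passed in any comparison. At 4 months the median difference of the 98 genes was -0.098, beside -0.024 over all genes, and 73 lay below 0. At 8 months the median was -0.10 beside 0.0020, and 78 lay below 0. Averaged over ages the median was -0.091 beside -0.012, with 79.6% of the 98 genes below 0 against 53.5% of all genes. Means above the median probe set mean were found for 93 of the 98, and 81.7% of these 93 lay below 0 averaged (median -0.093). Among all 11581 genes above that mean, 57.0% lay below 0 averaged (median -0.027). The medians of those 11581 genes were -0.052 at 4 months and 0.0030 at 8 months. Differences below 0 at both ages were found in 61 of the 98 genes (62.2%) and in 30.9% of all genes, and differences above 0 at both ages in 8 (8.16%) and 26.3%. The 98 genes were read on the same arrays, so these counts are not counts of independent values.

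**Figure D3:**
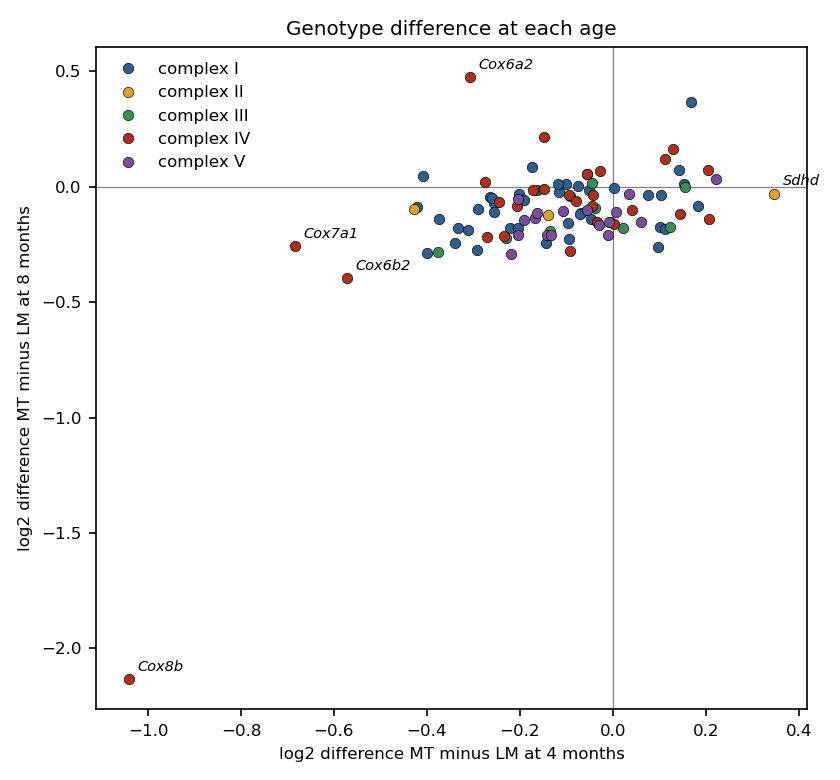
Genotype difference (MT minus LM, log2) of each of the 98 genes, coloured by complex. The x axis is the difference at 4 months, the y axis that at 8 months. Most points lie close to the origin and in the lower left part, where 61 genes had differences below 0 at both ages, and Cox8b (-1.04, -2.13) lies far from the rest.

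Of the 98 genes, 11 (11.2%) had all 4 MT arrays below all 4 LM arrays, and 0 had all 4 above, beside 2.42% and 1.28% of all genes. An averaged difference below 0 with an unadjusted p under 0.05 was found for 13 genes (13.3%) and one above 0 for 0, beside 4.64% and 2.08% of all genes. For the 93 genes above the median probe set mean these shares were 12.9% and 0%, beside 6.18% and 2.53% of all genes above it. In either direction, 11 of the 98 genes had an unadjusted p under 0.05 at 4 months, beside 5.74% of all genes. At 8 months there was 1 such gene, a smaller share than the 3.54% of all genes. Apart from Cox8b and Cox7a1, the genes without overlap were Ndufs8, Ndufv2, Ndufb2, Ndufb7, Ndufb11, Ndufc2 and Ndufa7 of complex I, Uqcrb of complex III and Atp5j2 of complex V.

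The pooled SD between the arrays of a group of the mean deviation was 0.059 for the 98 genes and 0.039 for the subunits of complex I. The mean deviation of the 81 subunits from their 8-array means was 0.072 and 0.087 in LM4m, -0.017 and -0.081 in MT4m, 0.013 and 0.078 in LM8m, and -0.0089 and -0.14 in MT8m. The 4 LM arrays were higher than the 4 MT arrays, but LM8m replicate 1 and the library labelled MT8m replicate 1 were 0.022 apart. Over all 98 genes these arrays were at 0.0034 and -0.0026. For the 97 genes without Cox8b they were at -0.010 and 0.0049, so that the genotypes then overlapped. MT8m replicate 2 was the lowest array for 40 of the 98 genes (40.8%) and for 16.5% of all genes. LM4m replicate 1, the array with the large Gapdh control difference, was the highest for 33 (33.7%) and for 17.4% of all genes. Without MT8m replicate 2 the median difference at 8 months became -0.025, and when the library labelled MT8m replicate 1 was left out it became -0.15. At 4 months the median was -0.12 without LM4m replicate 1, -0.061 without MT4m replicate 2 and -0.14 without MT4m replicate 1. The averaged median ran from -0.14 without the library labelled MT8m replicate 1 to -0.052 without MT8m replicate 2. Without LM4m replicate 1, averaged differences below 0 were found in 89 of the 98 genes and in 53.7% of all genes, and 12 of the 98 had no overlap with MT below, beside 3.19% of all genes. With the library labelled MT8m replicate 1 left out these were 86 genes beside 54.5%, and 21 beside 5.56%. The part of RNA quality in these medians was not tested.

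**Figure D4:**
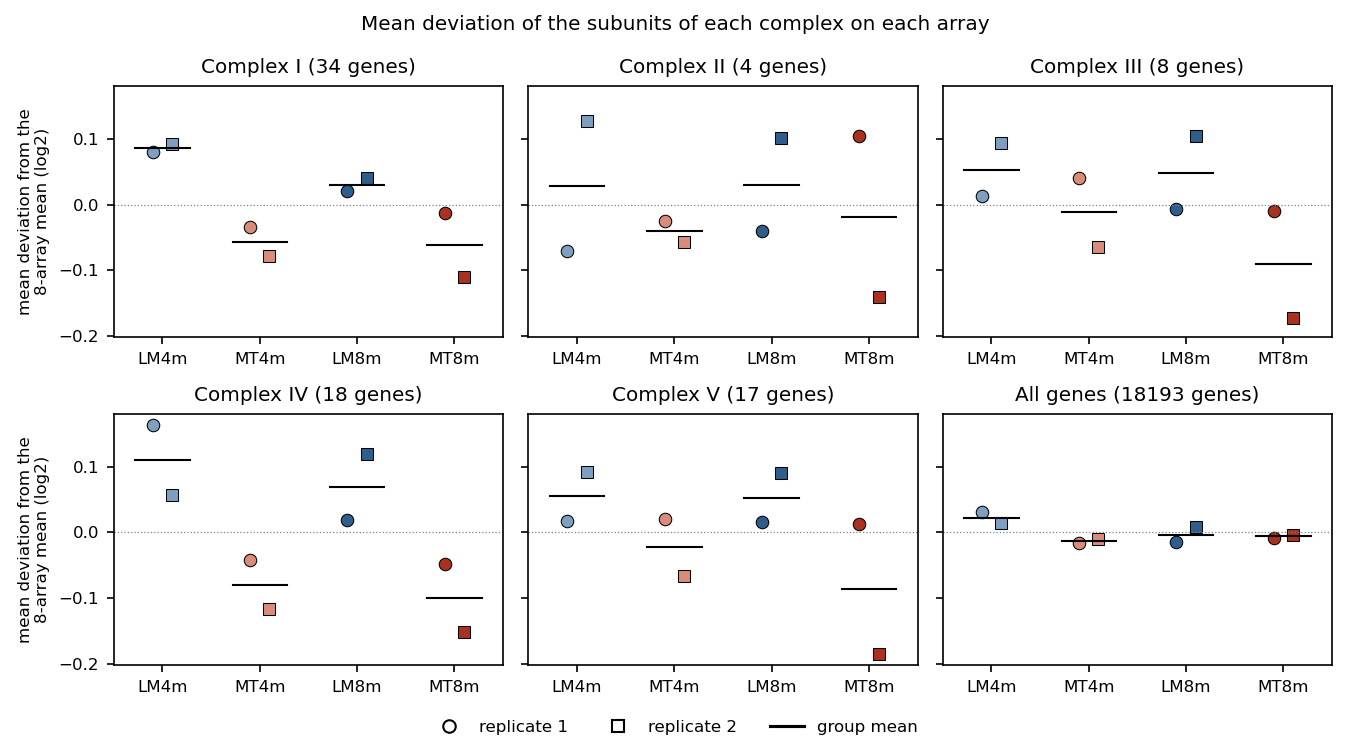
Mean deviation from the 8-array mean, in log2 units (y axis), of the subunits of each complex and of all genes, by group (x axis). Points are arrays (circle replicate 1, square replicate 2) and lines are group means. For complex I the LM arrays (0.021 to 0.093) lie above the MT arrays (-0.11 to -0.013). So they do for complex IV with its tissue isoforms, Cox8b among them (0.018 to 0.16 against -0.15 to -0.042). Without the tissue isoforms, which is not shown, the genotypes overlap in complex IV. For complexes II, III and V the genotypes overlap, and MT8m replicate 2 is the lowest array of every complex.

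Complex I takes electrons from NADH. Of its 34 subunits, 31 (91.2%) had an averaged difference below 0, beside 53.5% of all genes, with a median of -0.11. All MT arrays lay below all LM arrays for 7 (20.6%), beside 2.42% of all genes. Ndufs8, a core subunit that holds iron-sulfur clusters, read 9.73 and 9.49 in LM4m, 9.35 and 9.19 in MT4m, 9.44 and 9.39 in LM8m, and 9.25 and 9.10 in MT8m. Its averaged difference was -0.29 ± 0.10 (limma adjusted p = 0.827), and its other 5 single-symbol probe sets had differences from -0.29 to -0.20. Ndufb2, an accessory subunit of the membrane arm, read 9.10 and 9.10 in LM4m, 8.87 and 8.74 in MT4m, 8.99 and 9.01 in LM8m, and 8.88 and 8.58 in MT8m (-0.28 ± 0.10, adjusted p = 0.836). For the accessory subunits Ndufc2 and Ndufb7 and the core subunit Ndufv2 the averaged differences were -0.26, -0.25 and -0.26, each with an SE of 0.10 or 0.11.

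Other complex I subunits did not share this pattern. Ndufs1, the largest core subunit, had an averaged difference of 0.083 and read 7.42 in LM4m replicate 1, its lowest array, and without that array the difference was -0.025. Ndufv1, which binds NADH, had an averaged difference near 0 (-0.0017 ± 0.10), and Ndufs3 had -0.032 ± 0.10, which became -0.11 without LM4m replicate 1 and -0.065 without the library labelled MT8m replicate 1. With these arrays left out in the same order, Ndufv1 had -0.051 and -0.051, and Ndufs1 had 0.032 without the second. Ndufv3 (-0.19 ± 0.12) and Ndufc1 (-0.093 ± 0.09) were between. Among the 8 assembly factors of complex I, 5 had averaged differences below 0 and 0 separated the genotypes. Ndufaf8 read 7.18 and 6.98 in LM4m, 6.74 and 6.62 in MT4m, 7.27 and 7.22 in LM8m, and 7.04 and 6.88 in MT8m, a separation at each age (-0.34 ± 0.09 averaged, limma adjusted p = 0.757). For Ndufaf4 the difference was -0.42 ± 0.12 at 4 months and -0.089 ± 0.12 at 8 months, while Ndufaf1 had 0.27 ± 0.17 averaged and ranged from 5.19 to 5.98. Without LM4m replicate 1 Ndufaf1 had 0.12. Ndufaf5 had 0.050 ± 0.14, which became -0.079 without LM4m replicate 1 and -0.014 without the library labelled MT8m replicate 1. Without that library Ndufc1 had -0.15.

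Complex II is succinate dehydrogenase, which belongs to the tricarboxylic acid cycle as well as to the respiratory chain. Of its 4 subunits, 2 had averaged differences below 0. The flavoprotein Sdha was flat (0.00054 ± 0.09, 0.017 without LM4m replicate 1 and -0.020 without the library labelled MT8m replicate 1), and the iron-sulfur subunit Sdhb had -0.13 ± 0.12, which became -0.24 without that library. The membrane anchor Sdhc read 6.74 and 6.77 in LM4m, 6.32 and 6.34 in MT4m, 6.67 and 6.64 in LM8m, and 6.71 and 6.41 in MT8m, so that the genotypes were apart at 4 months and overlapped at 8 months (averaged -0.26 ± 0.10, limma adjusted p = 0.853). Sdhd, the other anchor, had the widest range of the complex because LM4m replicate 1 read 7.19 and the other arrays 7.53 to 7.98. Its averaged difference of 0.16 became -0.028 without that array.

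Complex III passes electrons from ubiquinol to cytochrome c. Its 5 accessory subunits all had averaged differences below 0 (median -0.16), and its 3 core subunits had a median of -0.013. The accessory subunit Uqcrb read 11.37 and 11.25 in LM4m, 11.01 and 10.86 in MT4m, 11.21 and 11.08 in LM8m, and 10.86 and 10.87 in MT8m. Every MT array of Uqcrb was below every LM array, and its averaged difference of -0.33 ± 0.09 had, after Cox8b, the smallest p of these genes but did not pass (limma adjusted p = 0.757). A dimmer probe set of Uqcrb had -0.20. The core subunit Uqcrc1 (-0.013 ± 0.09) and the hinge protein Uqcrh (-0.026 ± 0.10) differed little, and Uqcrfs1, the Rieske iron-sulfur protein, ranged most in this complex, with 7.77 in LM4m replicate 1 and 8.07 to 8.48 elsewhere. Its averaged difference of 0.078 became -0.086 without that array and -0.025 without the library labelled MT8m replicate 1, and for Uqcrc1 the values without each were -0.032 and -0.059. Uqcrh had -0.063 without that library.

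In complex IV, which reduces oxygen to water, 9 of the 10 subunits without the tissue isoforms had averaged differences below 0, with a median of -0.079 and a range from -0.22 to 0.020. In this group 0 separated the genotypes. Among its 9 assembly or supercomplex factors the median was -0.065, with 5 below 0: Cox11, which delivers copper, had 0.15 ± 0.11, Cox18, which inserts Cox2 into the membrane, 0.12 ± 0.13, and Cox16 0.033 ± 0.14. Without LM4m replicate 1 these were 0.078 for Cox11, 0.025 for Cox18 and -0.060 for Cox16, and Cox18 had 0.028 without the library labelled MT8m replicate 1. Complex V had 15 of 17 subunits (88.2%) below 0, beside 53.5% of all genes. These were all 12 of the membrane and stalk part (median -0.13) and 3 of the 5 of the catalytic F1 part (median -0.078). Atp5j2, of the membrane part, read 10.21 and 10.13 in LM4m, 10.09 and 9.81 in MT4m, 10.14 and 10.14 in LM8m, and 9.98 and 9.71 in MT8m (averaged -0.26 ± 0.10, limma adjusted p = 0.853). The catalytic subunit Atp5b had 0.13 ± 0.14 and read 10.25 in LM4m replicate 1 against 10.62 to 10.92 on the other arrays. Its averaged difference was -0.0020 without that array and 0.058 when the library labelled MT8m replicate 1 was left out. The small membrane subunit Atp5md had -0.15 ± 0.09.

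**Figure D5:**
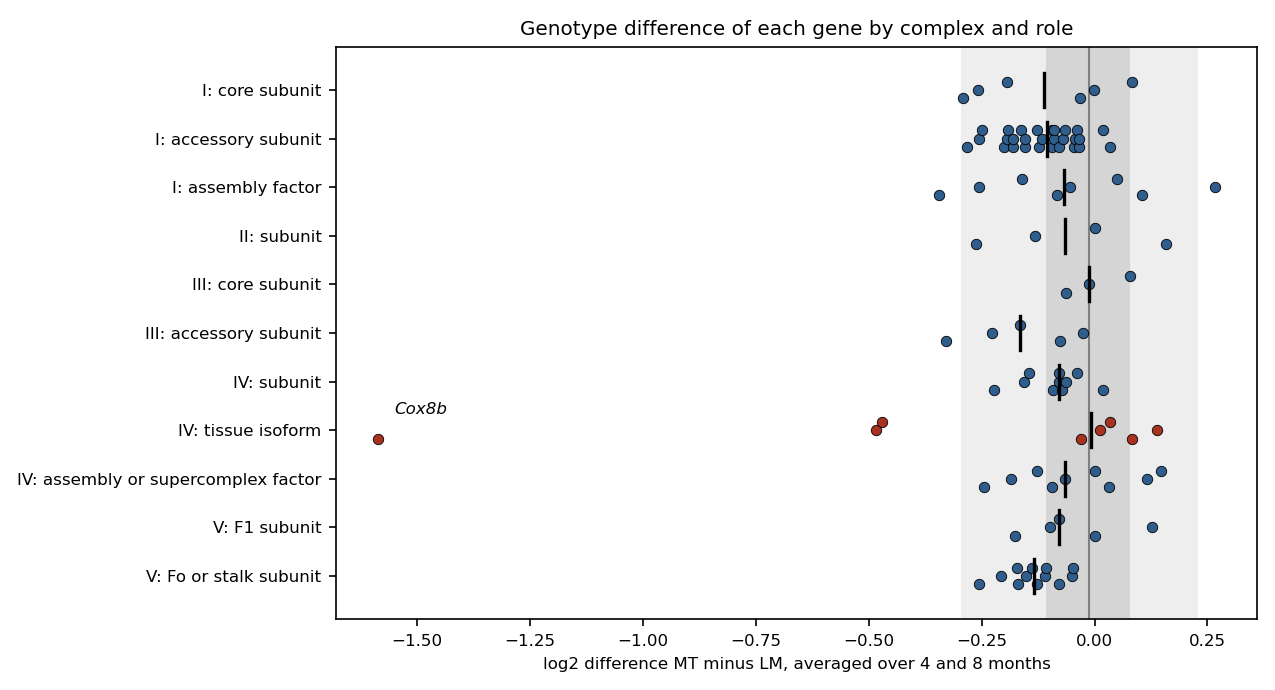
Averaged genotype difference (MT minus LM, log2, x axis) of each of the 98 genes, by complex and role (y axis). Points are genes, short black lines are medians of a role, tissue isoforms are red, and the light and dark grey bands hold the middle 90% and 50% of all 18193 genes around their median of -0.012 (grey line). Cox8b lies at -1.59, and all other genes lie between -0.48 and 0.27.

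With age the differences of these genes were smaller still. The median difference, 8 minus 4 months, was -0.051 in LM, -0.043 in MT and -0.038 averaged, beside -0.019, 0.0044 and -0.0038 over all genes, and 0 of the 98 genes passed in each. At an unadjusted p under 0.05 there were 1, 1 and 2 of the 98 genes, smaller shares than the 3.48%, 5.78% and 6.47% of all genes. Without MT8m replicate 2 the median in MT was 0.028 and without the library labelled MT8m replicate 1 it was -0.11. Ndufaf8 had an averaged age difference of 0.23 ± 0.09, Uqcrh -0.19 ± 0.10 and Cox7a2 -0.19 ± 0.09. The median interaction was 0.018, beside 0.026 over all genes, and 1 gene, Cox8b, had an unadjusted p under 0.05, beside 2.58% of all genes.

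Other genes of the pathway were read from lists chosen by function, and 0 of them passed by limma in any comparison of genotype. Only 1 of 26 listed symbols of mitochondrially encoded subunits had a probe set, and this gene, ND5 of complex I, ran from 11.24 to 11.70 with an averaged difference of -0.12 ± 0.11. Of 7 electron carriers and subunits outside the symbol rule, 6 had averaged differences below 0 (median -0.064), among them Etfb, of the electron-transferring flavoprotein, with -0.17 and Atpif1, the inhibitor of complex V, with -0.12, while Cyct, the testis cytochrome c, had 0.13. Of 29 further assembly factors, 16 were below 0 (median -0.019). At an unadjusted p under 0.05, 1 of the 29 (3.45%) was lower, beside 4.64% of all genes. Nubpl, which inserts iron-sulfur clusters into complex I, had -0.31, Uqcc2 of complex III -0.21 and Tmem70 of complex V 0.36. The 12 regulators of mitochondrial biogenesis had a median of 0.026, with 6 below 0. Ppargc1a, the coactivator of that program, had -0.18, Gabpb1 -0.18 and the mitochondrial transcription factor Tfb2m 0.16. The 17 genes of the tricarboxylic acid cycle had a median of 0.010 with 7 below 0. Among them 1 (5.88%) was lower at an unadjusted p under 0.05, beside the same 4.64% of all genes. Idh3g had -0.23, Dlst -0.18 and Dld 0.35.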

How the data were processed

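Hippocampal RNA of 8 samples was hybridised to Affymetrix Mouse Genome arrays. RMA values on the log2 scale were computed and deposited by the authors, with the package affy, whose version is not known here. The table has 45101 probe sets, and 64 of these are controls. Depth does not apply to arrays, and their number limits the precision.

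Genes were named from the array annotation, for probe sets with 1 symbol (34945 of 45037). All 98 symbols were found in the RefSeq table, which also gave the promoter windows (GRCm38.p6). Cox7b was not analysed here. Group means over all 8 arrays were fitted with limma 3.58.1 in R 4.3.3 (lmFit, eBayes, 4 residual degrees of freedom), with Benjamini-Hochberg adjustment over the 45037 probe sets and a threshold of 0.05. P-values are two-sided. Contrasts were genotype at each age and averaged, age in each genotype and averaged, the interaction and the moderated F test, the nearest to the 4-class test of the study. Complexes and lists are described by counts and medians, without a test. The script was tested on simulated data.

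The genes and lists were chosen with earlier results of these data known. Named were genes that passed, the tissue isoforms and their partners, the 5 smallest p each way in each genotype contrast and the averaged age contrast, the widest range of each complex, the 10 genes most like Cox8b and, of each pathway list, the 3 smallest p. Genes without overlap, Ndufs1, Ndufv1, Sdha, Sdhb and the marker genes were named after their values were seen. Results were recomputed without dim probe sets, after cyclic loess, with a robust trended prior, with 1 probe set or the mean of all probe sets per gene, on the 4 arrays of a contrast alone, in an additive model, with a block for the title number and without each array. Added after seeing the data were crossed numbers, counts of genes without each array in doubt and a fit that left out both.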

Additional observations from a re-analysis of the deposited data

How the results depend on the processing

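Under the filter on dim probe sets, cyclic loess, the other prior, 1 or all probe sets per gene and the additive model, Cox8b kept its calls at 8 months and averaged wherever the setting gives them, and the medians moved by less than their spread between replicates. With the 4 arrays of 8 months alone 0 genes passed (Cox8b -2.13). Leaving out single arrays gave 0 to 1 passing genes at 8 months and averaged, and Cox8b ran from -2.23 to -2.03 and from -1.69 to -1.49. The medians then ran from -0.15 to -0.025 for all 98 genes at 8 months, from -0.11 to 0.028 for age in MT and from -0.071 to 0.084 for the interaction. For complex I they ran from -0.16 to -0.11 at 4 months, from -0.13 to -0.024 at 8 months and from -0.15 to -0.096 averaged. At 8 months they ran from -0.17 to 0.074 for complex II, from -0.26 to -0.051 for complex III and from -0.23 to -0.062 for complex V. Without both LM4m replicate 1 and the library labelled MT8m replicate 1, the medians at 8 months were -0.13 for complex I, -0.26 for complex III and -0.23 for complex V, the averaged one for complex III was -0.19, that for age in MT -0.11 and the interaction -0.043. Each of these medians moves with the arrays left out, and the cause was not tested. Of 4453 values recomputed under these settings, 0 reversed a call, 4 lost their call and 62 moved by more than the spread between replicates or, for counts, by over 1.5 times. A reversal could be scored only where a gene passed in either fit, so the 0 says nothing about most of these values. Changes of sign in genes that did not pass, such as Sdhd and Atp5b without LM4m replicate 1, were not scored as reversals. With the title number as a replicate block, which LM4m shares with LM8m and MT4m with MT8m, the median age difference was -0.038 and the interaction of Cox8b -1.09. The block changed no call, and no age difference or interaction had passed without it. The deviations of same-numbered arrays from their group means correlated by 0.24 in LM and -0.17 in MT. With 2 arrays per group this is a single value per genotype, which cannot tell whether same-numbered arrays share more than a number. Genotype differences could not be had with the block because LM and MT share no number. Crossed numbers of the MT arrays also gave 0 passing genes. Signal over background could not be judged without detection calls, which limits the dim isoforms most.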

Other observations

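Of these genes, 57 had further single-symbol probe sets, 99 in all. Of these 99, 64 had genotype differences below 0 at 4 months (median -0.048) and 71 at 8 months (median -0.082), and 74 had averaged differences below 0 (median -0.071). The smallest limma adjusted p among them was 0.822 in the averaged contrast. Another 11 probe sets carried several symbols and were left out of all counts. For Ndufa11, an accessory subunit of complex I that shares its brighter probe set with Ndufa11b, the values were 8.78 and 8.77 in LM4m, 8.45 and 8.45 in MT4m, 8.83 and 8.88 in LM8m, and 8.69 and 8.43 in MT8m, so that all 4 MT arrays were below all 4 LM arrays. Cox14, an assembly factor of complex IV whose probe set is shared with Gm29733, read 8.15 and 8.24 in LM4m, 8.02 and 7.93 in MT4m, 8.00 and 8.12 in LM8m, and 8.05 and 7.60 in MT8m, with overlap at 8 months.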
